A study of Mus musculus with 12 samples.

Results

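Polyhormonal Ppy cells are islet cells in which the mRNA of pancreatic polypeptide (Ppy) was found together with the mRNAs of at least 2 of the other main islet hormones, glucagon (Gcg), insulin (Ins2) and somatostatin (Sst). Cells were chosen by these hormone mRNAs. A cell was taken as polyhormonal when its level, the natural log of 1 plus its UMIs per 10000, was above 3.23 for Ppy and above at least 2 of the thresholds of 5.12 for Gcg, 6.36 for Ins2 and 3.32 for Sst. These levels stand for 24.3, 166, 577 and 26.7 UMIs (unique molecular identifiers, each counting 1 captured mRNA) per 10000. Cells with a level above 3 for Cd74, Col3a1 or Plvap, genes of immune, stromal and endothelial cells, were dropped. In all, 172 of 5982 cells met the rule, and the hormone levels that chose them are given below as a description, without a test.

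The cells came from islets of Ppy-YFPi mice, pooled from several animals of mixed background and taken from the ventral pancreas. These mice carry Ppy-rtTA, in which rtTA replaces the coding sequence of one Ppy allele, together with TetO-Cre and R26-YFP, so that doxycycline (DOX) switches on an irreversible YFP label in cells that use the Ppy regulatory elements. They were heterozygous for Ppy-rtTA, which leaves a single wild-type Ppy allele, and DOX was given in the drinking water (1 mg/ml) from about 1 month of age, with analysis at 2 months. All 4 libraries share this genotype and treatment, and no library of mice without DOX was used here. Dissociated cells were sorted into a YFP+ and a YFP- fraction in each of 2 independent experiments, and the 4 fractions were loaded separately for 10x single-cell RNA-seq. Experiment 1 stands here for the libraries whose labels carry no number.

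In the mouse islet, each hormone is mainly made by its own cell type, Gcg by α-cells, Ins1 and Ins2 by β-cells, Sst by δ-cells and Ppy by γ-cells. These identities are kept by transcription factors, among them Irx1 and Irx2 in α-cells, Pdx1, Nkx6-1 and Mafa in β-cells and Hhex in δ-cells. Cells with the mRNAs of more than one hormone have been described among γ-cells, and the same picture in droplet data can come from 2 cells in 1 droplet or from free mRNA of neighbouring cells.

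The YFP+ libraries held 1300 cells and 11705631 UMIs in experiment 1 and 1498 cells and 11523971 UMIs in experiment 2. The YFP- libraries held 1495 cells with 18330975 UMIs and 1689 cells with 10683494 UMIs. Between libraries, 19 cell barcodes were shared, and they marked 39 cells, of which 1 was polyhormonal.

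The YFP+ libraries contained 45 polyhormonal cells in experiment 1 and 66 in experiment 2, and the YFP- libraries 15 and 46. Among cells above the Ppy threshold that were not dropped, they made up 3.53% (45 of 1275, 95% exact binomial interval 2.59 to 4.69%) and 4.66% (66 of 1417, 3.62 to 5.89%) in the YFP+ libraries. The share was 9.93% (15 of 151, 5.67 to 15.9%) and 28.6% (46 of 161, 21.7 to 36.2%) in the YFP- libraries, where far fewer cells had Ppy. The mean share was thus 4.09% ± 0.798 (SD, n = 2) in YFP+ and 19.3% ± 13.2 in YFP- libraries, and the ranges did not overlap. With 2 libraries against 2, the smallest two-sided p of an exact permutation test is 0.33, so that this difference was not tested. The intervals cover counting error only. Of all cells of a library, polyhormonal cells were 3.46% and 4.41% in the YFP+ and 1.00% and 2.72% in the YFP- libraries. The order of the fractions thus depends on whether Ppy cells or all cells are the base. With no cell dropped, the shares were 3.46% and 4.41% in the YFP+ and 9.93% and 28.0% in the YFP- libraries.

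Most polyhormonal cells combined Ppy with Gcg and Sst. This Ppy+Gcg+Sst+ combination accounted for 138 of the 172 cells (80.2%, 73.5 to 85.9%), with 39 and 48 cells in the YFP+ and 14 and 37 in the YFP- libraries of experiments 1 and 2. Combinations with Ins2 were rarer. There were 16 Ppy+Gcg+Ins2+ cells (4, 8, 0 and 4 in the same order), 12 Ppy+Ins2+Sst+ cells (2, 6, 1 and 3) and 6 cells above all 4 thresholds (0, 4, 0 and 2). Cells above 2 or 3 of the other thresholds but without Ppy numbered 0 in both YFP+ libraries and 42 and 72 in the YFP- libraries.

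The classes to which the polyhormonal cells are compared were cut by the same thresholds. Monohormonal Ppy+ cells, with no other hormone above its threshold, numbered 721 and 828 in the YFP+ and 2 and 14 in the YFP- libraries. Bihormonal Ppy+Gcg+ cells numbered 334 and 328 in the YFP+ and 45 and 39 in the YFP- libraries. There were 102 and 159 Ppy+Sst+ cells and 73 and 36 Ppy+Ins2+ cells in the YFP+ libraries.

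The share of Ppy cells above the Sst threshold was also taken in cells with and without Gcg, as a description of values that the rule used. In the YFP+ library of experiment 1, 10.3% of the Gcg+ cells (39 of 377) and 11.6% of the Gcg- cells (104 of 898) were above the Sst threshold, and the values of experiment 2 were 13.4% (52 of 388) and 16.04% (165 of 1029). In the YFP- libraries the share was lower in Gcg+ cells, with 23.7% against 85.9% in experiment 1 and 47.6% against 78.5% in experiment 2. Only 2 and 14 Ppy cells of these libraries were monohormonal, so most Gcg- Ppy cells there passed the Sst or Ins2 threshold. This makeup set much of the difference, from which no exclusion of Sst by Gcg can be read. Ins2 was above its threshold in 1.06% of the Gcg+ and 8.35% of the Gcg- Ppy cells of the first YFP+ library and in 3.09% and 4.08% of those of the second.

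Hormone levels within the polyhormonal cells differed between the fractions. The median Ppy+Gcg+Sst+ cell held 626 Ppy UMIs in the YFP+ library of experiment 1 (range 72 to 3491) and 1271.5 in that of experiment 2 (30 to 8156), against 115.5 (47 to 598) and 66 (6 to 871) in the YFP- libraries. For Gcg, the medians were 1507 and 737 UMIs in the YFP+ and 3232.5 and 1996 in the YFP- libraries. For Sst, they were 430 and 172.5 UMIs in the YFP+ and 782.5 and 327 in the YFP- libraries. Within each experiment, the YFP+ cells thus had the higher Ppy and the lower Gcg and Sst medians. Monohormonal Ppy+ cells of the YFP+ libraries had medians of 2042 and 1418 Ppy UMIs. Their medians were 7 and 5 Gcg UMIs and 1 Sst UMI in both.

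**Figure D1:**
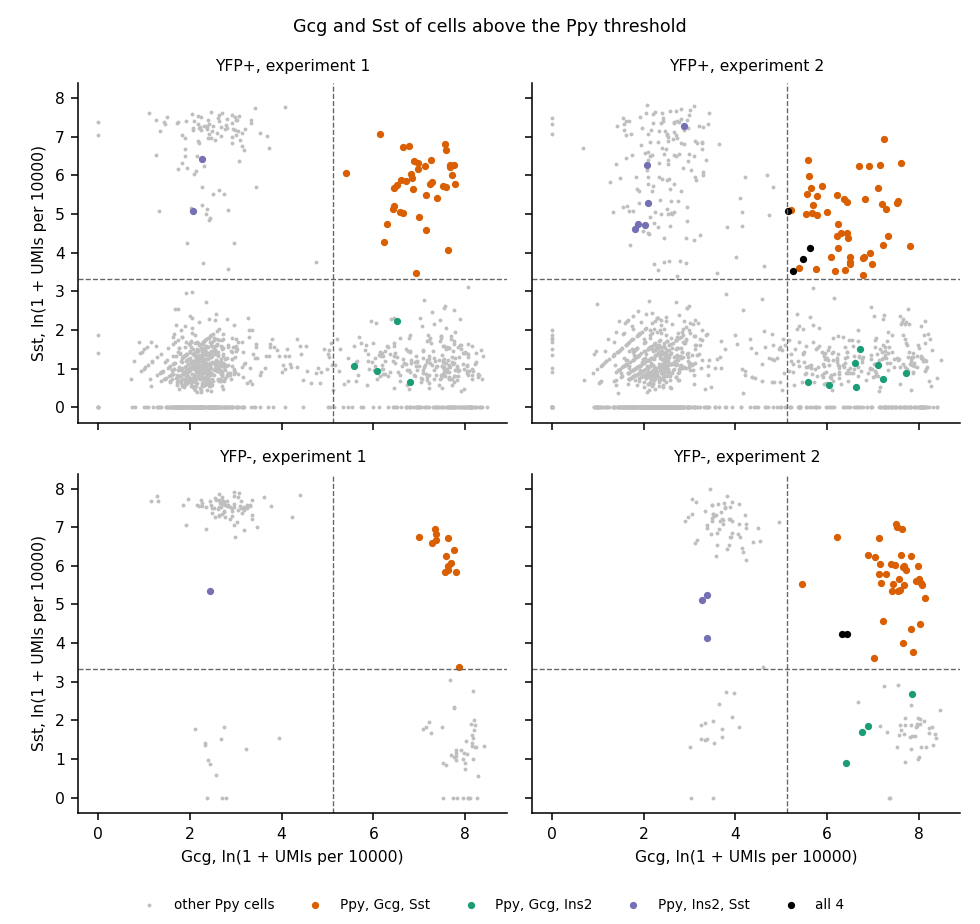
Gcg level (horizontal axis) and Sst level (vertical axis), both as the natural log of 1 plus UMIs per 10000, in each Ppy cell of the 4 libraries, with lines at the thresholds of 5.12 and 3.32. Colours mark the combinations of polyhormonal cells, and the cells above both lines numbered 39 and 52 in the YFP+ and 14 and 39 in the YFP- libraries.

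In the rarer combinations, Ins2 took a large share of the transcriptome. The 8 Ppy+Gcg+Ins2+ cells of the YFP+ library of experiment 2 had a median of 2677.5 Ins2 UMIs, and the 4 cells of experiment 1 had 2513.5, next to medians of 570.5 and 544.5 Ppy UMIs. The 6 Ppy+Ins2+Sst+ cells of experiment 2 had a median of 1606 Ins2 and 314.5 Sst UMIs, with 6.5 Gcg UMIs. The 4 YFP+ cells above all 4 thresholds had medians of 3113 Ppy, 596 Gcg, 3301.5 Ins2 and 165 Sst UMIs.

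Some cells lay at the borders of the rule. The lowest polyhormonal cell stood at 3.26 for Ppy and the highest cell kept out by Ppy alone at 3.20, and 13 polyhormonal cells were within 0.25 above the threshold while 10 cells were within 0.25 below it. For Gcg, the values next to the threshold were 5.15 inside and 4.94 outside, with 3 and 1 cells within 0.25. For Ins2 they were 6.37 and 6.28 (5 and 2 cells), and for Sst 3.39 and 3.11 (6 and 2 cells). With all thresholds raised by 0.25, 149 cells met the rule, and with all lowered by 0.25, 188 did. In the YFP- library of experiment 2, which held 46 polyhormonal cells, these settings gave 33 and 54.

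Ppy mRNA was also counted in dropped cells, and this limits how Ppy at low levels in the YFP+ libraries can be read. Whether some of these dropped cells made Ppy themselves was not tested. All 24 and all 81 dropped cells of the YFP+ libraries, which carried Cd74, Col3a1 or Plvap, lay above the Ppy threshold, with medians of 26.5 and 25 Ppy UMIs. Of the YFP+ polyhormonal cells, 43 of 45 and 61 of 66 stood above the median Ppy level of these dropped cells. Above the highest dropped cell were 14 of 45 (31.1%) and 51 of 66 (77.3%) polyhormonal cells, against 96.1% and 98.2% of the monohormonal Ppy+ cells. That limit is a single cell in each library, at a Ppy level of 6.80 and 5.37, next to dropped medians of 4.32 and 4.67. In the YFP- libraries, 0 of 231 and 7 of 554 dropped cells passed the Ppy threshold, and 15 of 15 and 4 of 46 polyhormonal cells exceeded the highest of them. The Sst and Ins2 thresholds were passed by none of the 24 and 81 dropped YFP+ cells, and the Gcg threshold by 4 of 24 in experiment 1 and 0 of 81 in experiment 2. Of the dropped YFP- cells, 1 of 231 and 21 of 554 (3.79%) passed the Sst, 1 of 231 and 19 of 554 (3.43%) the Gcg and 0 of 231 and 1 of 554 the Ins2 threshold.

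The transgenes followed the sort in the polyhormonal cells. At least 1 UMI of rtTA, which is read from the Ppy locus, was found in 26 of 45 (57.8%) and 28 of 66 (42.4%) YFP+ polyhormonal cells, against 0 of 24 and 0 of 81 dropped cells of the same libraries. In monohormonal Ppy+ cells the shares were 63.5% and 43.7%. The median depth behind these shares was 11577 and 12958 UMIs in polyhormonal, 7575 and 5887 in monohormonal and 3464 and 2302 in dropped cells. In YFP- polyhormonal cells, rtTA was found in 0 of 15 cells and 0 of 46 cells, which allows a share of cells with a UMI of up to 20% and 6.52% by 3 counts (exact binomial upper bounds 21.8% and 7.71%). YFP was found in 33 of 45 (73.3%) and 49 of 66 (74.2%) YFP+ polyhormonal cells and in 1 of 15 and 0 of 46 YFP- ones. Dropped cells of the YFP+ libraries had a YFP UMI as well, in 58.3% and 27.2% of cells and at 196 and 130 plain CPM, next to 169 and 143 CPM in monohormonal Ppy+ cells.

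Polyhormonal cells held more UMIs than monohormonal Ppy+ and bihormonal Ppy+Gcg+ cells. Their median UMI total was 11577 (range 1281 to 27017) and 12958 (2221 to 48894) in the YFP+ and 14805 (9021 to 38402) and 11016 (1033 to 35009) in the YFP- libraries. This was 1.53 and 2.20 times the median of monohormonal Ppy+ cells in the YFP+ libraries (1.86 ± 0.476 SD, n = 2), and it was 1.83 times as high once the 4 hormones were left out. Against bihormonal Ppy+Gcg+ cells, the ratio was 1.5, 2.04, 2.06 and 1.36 in the YFP+ and then the YFP- libraries of experiments 1 and 2, so it was above 1 in 4 of 4 libraries. Among the YFP+ combinations, the 4 cells with all 4 hormones had the highest median, 28515 UMIs.

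The UMI totals did not separate polyhormonal cells from the others, as the plot of UMI totals shows. Of the YFP+ polyhormonal cells, 26 of 45 and 26 of 66 had no more UMIs than the upper quartile of Ppy+Gcg+ cells, and of the YFP- ones 1 of 15 and 30 of 46. The median of Ppy+Gcg+Sst+ cells was 0.984 and 1.10 times the sum of the medians of Ppy+Gcg+ and Ppy+Sst+ cells in the YFP+ libraries, and 1.27 and 0.923 times in the YFP- libraries. More genes were also detected. At an equal 3000 UMIs per cell, the median polyhormonal cell showed 1029.5 and 963.5 genes in the YFP+ libraries, against 764 and 752 in monohormonal Ppy+ cells, 869 and 859 in Ppy+Gcg+ cells and 1073 and 988.5 in Ppy+Sst+ cells. The polyhormonal value lay above those of Ppy+Gcg+ cells and below those of Ppy+Sst+ cells in both experiments. The thinning left out 1 and 2 polyhormonal, 23 and 125 monohormonal, 6 and 47 Ppy+Gcg+ and 16 and 53 Ppy+Sst+ cells with fewer UMIs. The mitochondrial share was 1.11 ± 0.138 times (SD, n = 2) that of monohormonal cells.

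**Figure D2:**
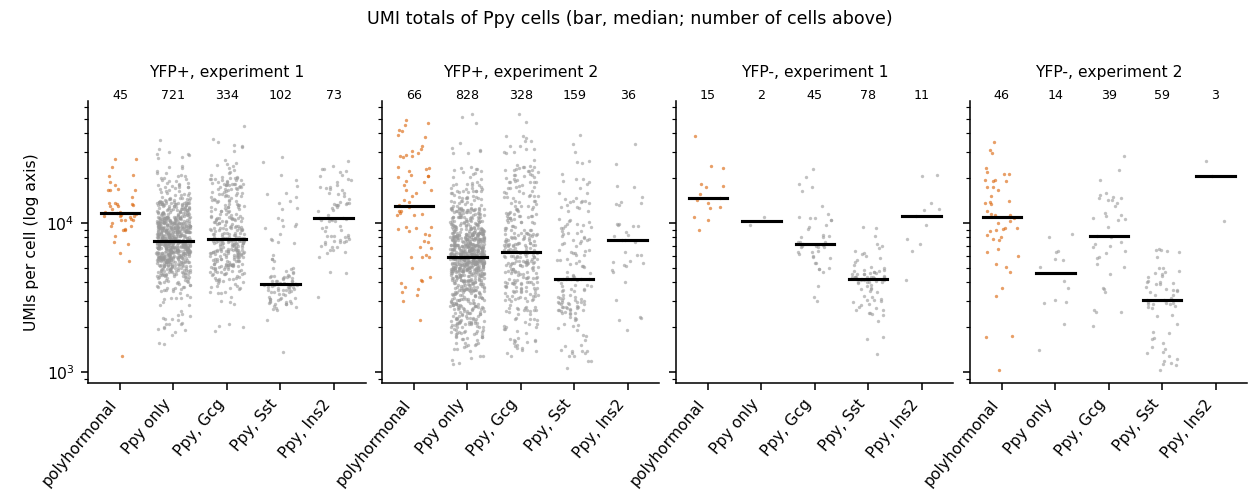
UMI total of each Ppy cell (vertical log axis) by class in the 4 libraries, with a bar at the median and the number of cells above. The medians of polyhormonal cells, from 11016 to 14805 UMIs, were above those of the other classes except the 3 Ppy+Ins2+ cells of the second YFP- library (20505 UMIs).

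Doublet calls marked few polyhormonal cells. Scrublet (score above 0.2, expected rate 2%) marked 0 of them and 8 of all 5982 cells (0.134%). The study's methods remove cells called by Scrublet or DoubletFinder before later steps, and the sources do not state whether the deposited cells are those left after this removal, so that few calls carry little information. A second caller, which scores the share of artificial doublets among the nearest neighbours as DoubletFinder does, marked 6 of 172 (3.49%, 1.29 to 7.44%), of which 2, 2, 0 and 2 were in the YFP+ and YFP- libraries of experiments 1 and 2. Of the 138 Ppy+Gcg+Sst+ cells it marked 2. Either caller marked 5 of 1565 monohormonal Ppy+ cells (0.319%), 1 of 746 Ppy+Gcg+ cells (0.134%), 0 of 398 Ppy+Sst+ cells and 18 of 123 Ppy+Ins2+ cells (14.6%). Over all cells, 128 were marked (2.14%), a share that the caller's setting of 2% fixes.

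The scores beneath these calls were above those of most other Ppy classes in the YFP+ libraries, and by Scrublet also in the YFP- libraries. Ranked within its experiment from 0 to 100, the median Scrublet score of polyhormonal cells was 94.9, 82.2, 90.9 and 87.5 in the YFP+ and then the YFP- libraries. Monohormonal Ppy+ cells stood at 44.8 and 39.6 in the YFP+ libraries, and Ppy+Gcg+ cells at 67.8 and 58.7. Ppy+Sst+ cells were further apart, at 20.6 and 69.8. The median rank of the nearest-neighbour score was 82.0, 79.7, 66.4 and 72.8 for polyhormonal cells, against 14.2 and 16.2 for monohormonal Ppy+ cells of the YFP+ libraries, 30.1 and 46.8 for Ppy+Gcg+ cells and 54.8 and 52.5 for Ppy+Sst+ cells. Ppy+Ins2+ cells reached 79.9 and 71.0 by the same score. In the YFP- libraries this score stood at 67.9 and 65.4 over all cells, at 39.3 and 51.5 in Ppy+Gcg+ and at 64.3 and 32.4 in Ppy+Sst+ cells, so that the polyhormonal median of experiment 1 was below that of all cells. It was also below those of monohormonal Sst+ (72.9) and Ins2+ cells (76.6) and of Ppy+Ins2+ cells (93.2) of that library. The Scrublet rank in the YFP- libraries was 47.5 and 52.4 over all cells. Both callers compare cells with summed pairs of cells and use the hormone genes themselves, so high scores and the choice of these cells rest partly on the same values. The part of doublets among the 172 cells was not tested, and co-expression and 2 cells in 1 droplet cannot be told apart by these scores.

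**Figure D3:**
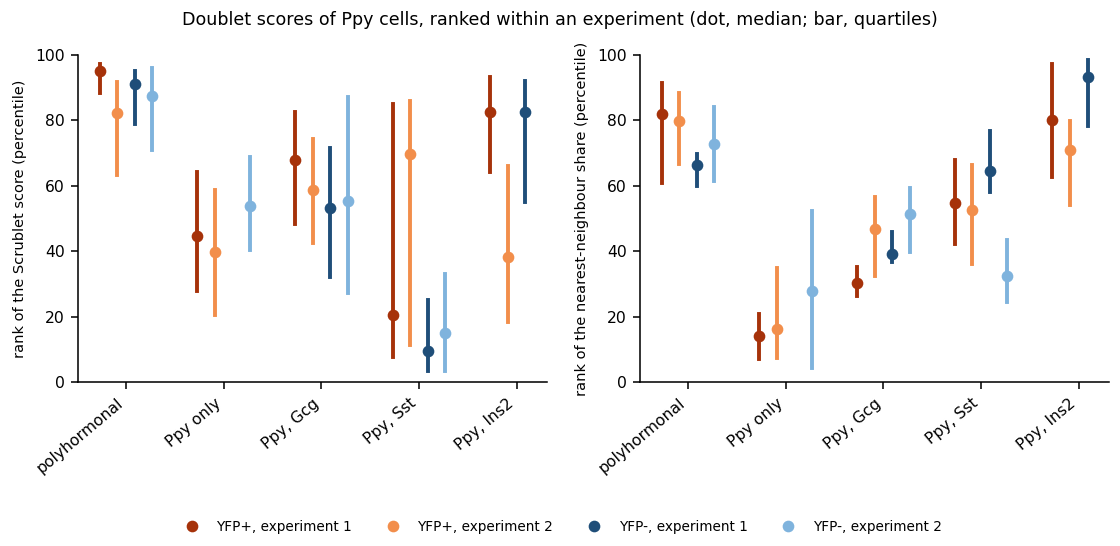
Rank of the Scrublet score (left) and of the nearest-neighbour score (right) within an experiment, from 0 to 100, by class of Ppy cell and library, with a dot at the median and a bar from the lower to the upper quartile. Classes of fewer than 10 cells in a library are left out. Median Scrublet ranks of polyhormonal cells were between 82.2 and 94.9, and those of Ppy+Ins2+ cells reached 82.3.

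To ask which other genes distinguished polyhormonal cells, UMIs were summed per class and library, since cells of a library are not replicates, and classes of the YFP+ libraries were compared across the 2 experiments with edgeR's quasi-likelihood test. A gene was called at a Benjamini-Hochberg adjusted p of at most 0.05 and a change above 0.5 on the natural log scale, which is 0.721 on the log2 scale. Levels of single genes in these comparisons are given as TMM-normalized CPM, scaled so that most genes match between sums, in the order experiment 1, experiment 2. Sums over a list, levels of markers of other cell types within such sums and levels in small combinations are plain CPM, scaled by the UMI total of the class alone. Differences are given as log2 fold changes ± SE from the fit. Because classes were cut by hormone levels, Ppy, Gcg, Ins2 and Sst are not read as results, although the counts of called genes include those of them that passed (4 of the 399 below, and 1 to 3 in each later comparison).

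Compared with monohormonal Ppy+ cells, the sums of polyhormonal cells had more mRNA of 4 of 6 α-cell, 4 of 6 tested δ-cell and 8 of 12 β-cell genes and less of the γ-cell genes Pyy, Tspan8 and Folr1. In all, 399 of 9320 genes tested were called (4.28%), of which 232 were higher (2.49%) and 167 lower (1.79%) in polyhormonal cells. The count rests on both experiments, since it fell to 85 without the YFP+ library of experiment 1 and to 75 without that of experiment 2. It was 44 when each cell was thinned to 1000 UMIs, where only 2205 genes were tested, here and against the bihormonal classes. The count was 151 without the experiment as a block (112 higher and 39 lower) and 276 with DESeq2 (199 higher and 77 lower).

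Of the 6 α-cell genes, all tested, 4 rose (Irx1, Irx2, Slc7a2 and Slc38a5) and 1 fell (Gc). Their median log2 fold change was 1.84, against 0.0007 over all genes. Irx2, an α-cell transcription factor, was at 36.6 and 15.3 CPM in polyhormonal cells and at 4.04 and 4.88 in monohormonal Ppy+ cells (log2 fold change 2.39 ± 0.35, adjusted p = 1.18e-04). Slc7a2, an arginine transporter, was at 151 and 104 against 50.8 and 51.1 CPM (1.29 ± 0.18, adjusted p = 9.42e-05). For Irx2 and Slc7a2 both polyhormonal sums were above both monohormonal sums, but neither was called under every alternative of the processing. Ttr, a carrier of thyroid hormone and retinol that is abundant in α-cells, was at 6464 and 4195 against 5736 and 5051 CPM and was not called (-0.03 ± 0.25, adjusted p = 0.968).

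Of the 7 δ-cell genes, 6 passed the filter on low counts and 4 rose (Hhex, Rbp4, Spock3 and Ptprz1). Their median log2 fold change was 4.70 in the fit and 3.48 with genes absent from a class set to their lower bound. Hhex, the transcription factor that maintains δ-cells, was at 55.0 and 32.9 CPM in polyhormonal and at 1.73 and 2.65 CPM in monohormonal Ppy+ cells (4.21 ± 0.44, adjusted p = 1.64e-06). Rbp4, the retinol-binding protein of plasma, was at 1012 and 750.02 against 448 and 438 CPM (0.98 ± 0.29, adjusted p = 0.0469). Ptprz1, a receptor tyrosine phosphatase, had 22 UMIs in the polyhormonal sums and 0 in the far larger monohormonal sums, so it was at least 36.8-fold higher if 3 counts are set for the whole group, on the TMM scale as in all later bounds and ratios of UMIs. Spock3, a secreted proteoglycan, had 16 UMIs against 0, at least 26.7-fold higher by the same floor. In monohormonal Sst+ cells of the YFP- libraries, Hhex was at 141 and 162 CPM, so that polyhormonal cells lay between monohormonal Ppy+ and Sst+ cells. Hhex was not called under every alternative of the processing.

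Of the 12 β-cell genes, 8 rose (Ins1, Iapp, Mafa, Pdx1, Slc2a2, G6pc2, Ucn3 and Papss2), with a median log2 fold change of 2.06, although Mafa, Pdx1 and Ucn3 took the opposite sign after thinning to 1000 UMIs. Iapp, the amyloid peptide that is co-secreted with insulin and is also made by δ-cells, was at 10348 and 11329.8 against 3067 and 2826 CPM (1.89 ± 0.15, adjusted p = 1.39e-08). Ins1, the paralog of Ins2 whose reads are close to those of the gene in the rule, was at 1924 and 12507 against 290 and 263 CPM (4.68 ± 0.61, adjusted p = 3.10e-05), and the experiments differed widely. Mafa had 8 UMIs in polyhormonal cells and 0 in monohormonal ones, at least 13.4-fold higher against 3 counts over the group. Nkx6-1, a β-cell transcription factor, was at 32.4 and 48.2 against 49.3 and 45.2 CPM and was not called (-0.21 ± 0.28, adjusted p = 0.738). Most of this β-cell signal belonged to the few cells with Ins2. When only Ppy+Gcg+Sst+ cells were compared with monohormonal Ppy+ cells, 1 of the 12 genes rose (Iapp) and 1 fell (Nkx6-1), as given below.

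Of the 7 γ-cell genes, 3 fell (Pyy, Tspan8 and Folr1) and none rose, with a median log2 fold change of -0.18. Pyy, the peptide hormone encoded next to Ppy, was at 74546 and 120648 against 297072 and 316897 CPM (-1.67 ± 0.21, adjusted p = 2.42e-05). Tspan8, a membrane tetraspanin, was at 206 and 162 against 495 and 430 CPM (-1.34 ± 0.18, adjusted p = 3.47e-05). Folr1, a folate receptor, was at 134 and 19.9 against 506 and 66.5 CPM (-1.90 ± 0.25, adjusted p = 3.78e-05), a change within each experiment although the ranges of the classes overlapped. The transgene rtTA, read from the Ppy locus, was at 151 and 93.4 against 584 and 313 CPM (-1.84 ± 0.14, adjusted p = 9.21e-09). Ppy itself, which the rule used, was at 60716 and 105145 against 306178 and 287362 CPM.

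Endocrine progenitor genes, a list of 8 with 5 tested, included 1 that rose, Neurog3, the factor that starts endocrine differentiation in the embryo. It was at 52.1 and 14.5 CPM in polyhormonal and at 3.08 and 0.814 in monohormonal Ppy+ cells (3.98 ± 0.40, adjusted p = 1.05e-06). Monohormonal Sst+ cells of the YFP- libraries had 77.2 and 49.1 CPM of it and monohormonal Gcg+ cells none. Ppy+Sst+ cells of the YFP+ libraries had 63.9 and 21.7 CPM, next to which the polyhormonal level was not called (-0.40 ± 0.31, adjusted p = 0.754), nor was any other progenitor gene. Of 16 pan-endocrine genes, 15 were tested, with Insm1 (52.1 and 51.3 against 24.8 and 23.4 CPM) and Rfx6 (16.9 and 17.6 against 4.62 and 4.48 CPM), both transcription factors of endocrine cells, higher, and Scg5, a chaperone of prohormone convertase, lower (1225 and 847 against 1897 and 1561 CPM). Ppy+Sst+ cells of the YFP+ libraries had Insm1 at 54.6 and 53.8, Rfx6 at 25.3 and 23.2 and Scg5 at 1049 and 907 CPM. No pan-endocrine gene was called against that class. Among 10 exocytosis genes 1 fell, Stx1a, a syntaxin of the fusion machinery, at 4.23 and 5.36 against 12.9 and 14.2 CPM. Of 17 tested genes of ER folding and the unfolded protein response, Dnajb9, an ER co-chaperone, fell from 220 and 176 to 131 and 111 CPM, and no other was called. None of 13 tested immediate early and heat shock genes and 2 cell cycle genes was called. The 1 further peptide hormone gene tested, Npy, was at 0 CPM in both classes, so it could not be called.

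By size of the fold change, the 10 leading higher genes were Ptprz1, Ly6h, Cd24a, Cfap61, Fam159b, Bmp3, Asic2, Ins1, Sdk2 and Dscam. Ly6h, a GPI-anchored protein of the Ly6 family, was at 52.1 and 53.6 against 0.577 and 1.22 CPM (5.82 ± 0.36, adjusted p = 4.26e-10). Cd24a, a surface sialoglycoprotein, was at 135 and 106 against 1.92 and 3.26 CPM (5.49 ± 0.29, adjusted p = 3.28e-11). Fam159b was at 185 and 148 against 3.66 and 7.12 CPM (4.93 ± 0.28, adjusted p = 1.30e-10). All 3 were most abundant in monohormonal Sst+ cells of the YFP- libraries, where Ly6h was at 268 and 229, Cd24a at 520 and 551 and Fam159b at 652 and 713 CPM. Bmp3, a growth factor of the BMP family, and Asic2, an acid-sensing ion channel, were at 19.7 and 7.65 CPM each, with log2 fold changes of 4.88 ± 0.76 and 4.82 ± 0.72. The adhesion proteins Sdk2 and Dscam were at 11.3 and 10.7 and at 15.5 and 6.12 CPM.

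The 10 leading lower genes were Igkc, Dcn, Mfap5, Ifi27l2a, Apoe, Spp1, Ifnar2, rtTA, Praf2 and 1 predicted gene, of which several are not endocrine. All 24 and 81 dropped cells of the YFP+ libraries passed the Ppy threshold, and 0 YFP+ cells were above no hormone threshold. A non-endocrine cell that was not dropped could thus be counted as monohormonal Ppy+. The part of such cells in these falls was not tested. Igkc, an immunoglobulin chain of B cells, was at 9.87 and 1.53 against 15.6 and 501 CPM, so its change came almost wholly from experiment 2. Dcn, decorin of connective tissue, had 2 UMIs in polyhormonal and 261 in monohormonal sums (26.0-fold lower, 95% counting interval 7.13 to 216). Mfap5, a microfibril protein, had 2 against 120 UMIs (12.0-fold lower, 3.24 to 99.9). Spp1, osteopontin, was at 29.6 and 52.0 against 149 and 196 CPM (-2.14 ± 0.37, adjusted p = 7.14e-04). Ifnar2, a subunit of the interferon receptor, was at 11.3 and 6.89 against 26.7 and 34.0 CPM (-1.88 ± 0.28, adjusted p = 1.48e-04).

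Markers of other cell types were also counted. Cd74, Col3a1 and Plvap, by which cells were dropped, are on these lists, so low values of these genes were fixed in part by the rule. Of 4 tested ductal markers, Krt7, Krt18 and Spp1 fell, Krt7 with the opposite sign after thinning, and of 3 tested stromal markers Dcn fell, while none of 7 acinar, 2 endothelial and 6 immune markers was called. The monohormonal Ppy+ class can hold non-endocrine cells, as described above, and their part in these falls was not tested. With sums over both fractions, Lyz2 of myeloid cells was called higher in polyhormonal cells (2.33, adjusted p = 0.0281). In plain CPM, the 6 ductal markers summed to 210 and 181 in YFP+ polyhormonal cells, with Krt18 the most abundant in experiment 1 and Krt7 and Spp1 level in experiment 2 (68 UMIs each, next to 66 of Krt18), and Krt19, Cftr and Muc1 at 0. The 8 immune markers summed to 74.2 and 54.7 CPM, mostly C1qa, with Tyrobp and Laptm5 at 0 in both libraries. The 7 stromal markers summed to 15.5 and 13.46 CPM, with Pdgfrb and Rgs5 at 0. The 7 endothelial markers summed to 38.0 and 26.9 CPM, with Egfl7 the most abundant and Plvap, Kdr, Cdh5 and Flt1 at 0. The 7 acinar markers summed to 48.3 and 65.5 CPM, led by Cela2a. The glial genes Sox10 and Gfap were at 0. Red blood cell genes were at 1 UMI and 0 UMIs.

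Compared with bihormonal Ppy+Gcg+ cells, polyhormonal cells had more mRNA of δ-cell genes and, where cells with Ins2 were included, of β-cell genes. Of the 9320 genes, 114 were called (1.22%), with 102 higher (1.09%) and 12 lower (0.129%). The count was 38 without the YFP+ library of experiment 1, 30 without that of experiment 2 and 14 after thinning to 1000 UMIs. None of the 6 α-cell genes was called (median log2 fold change -0.43, against -0.018 over all genes) and none of the 7 γ-cell genes (median -0.40). Of the 6 tested δ-cell genes, 3 rose (Hhex, Spock3 and Ptprz1), with a median of 4.80 in the fit and 3.26 with genes absent from a class at their bound. Of the 12 β-cell genes 8 rose, with Pcsk1, a prohormone convertase, in place of Mafa in the group named above and Ucn3 with the opposite sign after thinning or in polyhormonal cells of ordinary UMI totals. The median of the 12 was 2.39, and with Ppy+Gcg+Sst+ cells alone it was 0.29 and 2 rose (Iapp and Pdx1).

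Hhex was at 55.0 and 32.9 CPM in polyhormonal and at 0.595 and 1.65 CPM in Ppy+Gcg+ cells (5.16 ± 0.54, adjusted p = 2.72e-06). Neurog3 was at 1.49 and 1.65 CPM in Ppy+Gcg+ cells (4.30 ± 0.45, adjusted p = 2.79e-06). Sox9, a factor of progenitor and duct cells, had 27 UMIs in polyhormonal and 3 in Ppy+Gcg+ sums, a ratio of 28.5 with a 95% counting interval of 8.78 to 147. The 10 leading higher genes were Cfap61, Fam159b, Mef2c, Ly6h, Ptprz1, Cd24a, Bmp3, Hhex, Cd44 and Dpp6, and all of them but Cfap61 had at least 1 UMI in Ppy+Gcg+ cells. Cfap61, a protein of cilia and flagella, had 41 UMIs in polyhormonal cells and 0 in Ppy+Gcg+ cells, at least 43.3-fold higher against 3 counts over the group. Mef2c, a transcription factor of the MEF2 family, had 69 against 3 UMIs, a ratio of 72.9 (23.9 to 362). These levels were shared with Ppy+Sst+ cells of the YFP+ libraries. Mef2c was at 91.8 and 28.4 CPM there, against 49.3 and 26.02 in polyhormonal cells. Cfap61 was at 34.6 and 26.9 against 26.8 and 16.8 CPM, and Sox9 at 19.96 and 30.7 against 8.46 and 16.1 CPM. Bmp3 was higher in Ppy+Sst+ cells in experiment 1 only (25.3 and 4.49 against 19.7 and 7.65 CPM).

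Leading lower genes were Serpina1b, Ifnar2, Psmg2, Serpina1a, Mrpl1, Ccdc58, Dido1, Ptprd and Psmb7. The number of lower calls depended on the fit. It was 12 here, 2 with DESeq2, 0 without the experiment as a block and 46 without the YFP- library of experiment 2. Higher calls numbered 102, 97, 57 and 164 in the same order. Psmb7, a subunit of the proteasome, was at 32.4 and 29.1 against 57.1 and 49.5 CPM (-0.78 ± 0.18, adjusted p = 0.0256). Serpina1a and Serpina1b, near-identical copies whose reads cannot be told apart with certainty, were at 8.46 and 8.42 against 18.7 and 26.7 CPM and at 2.82 and 4.59 against 11.002 and 25.1 CPM.

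Compared with bihormonal Ppy+Sst+ cells, the direction turned to α-cell genes. Of the 9320 genes, 50 passed (0.536%), of which 37 rose (0.397%) and 13 fell (0.139%), a count that fell to 17 and 16 without the YFP+ library of experiment 1 or 2 and to 17 after thinning. Of the 6 α-cell genes, 3 rose (Irx2, Ttr and Slc7a2), with a median log2 fold change of 1.79, against -0.0020 over all genes. Ttr was at 6464 and 4195 against 1621 and 2131 CPM (1.47 ± 0.26, adjusted p = 0.00472) and Slc7a2 at 151 and 104 against 25.3 and 30.7 CPM (2.11 ± 0.24, adjusted p = 1.32e-05). None of the δ-cell genes (median -0.98) and none of the γ-cell genes (median -0.40) was called. Hhex, with 90.5 and 69.6 CPM in Ppy+Sst+ cells, was higher there in both experiments but not called (-0.92 ± 0.31, adjusted p = 0.286). Among named genes, Fam159b (570 and 403 CPM in Ppy+Sst+ cells, -1.56 ± 0.22), Cd24a (355 and 291 CPM, -1.44 ± 0.20) and Ly6h (138 and 115 CPM, -1.24 ± 0.21) were lower in polyhormonal cells. Of 10 named genes called in this comparison, 1 kept its call under every alternative of the processing. Of the β-cell genes, 4 rose (Ins1, Slc2a2, G6pc2 and Ucn3), of which Slc2a2, the glucose transporter, had 21 UMIs against 0 (at least 7.25-fold higher) and Ucn3, a peptide of mature β-cells, 16 against 0 (at least 5.52-fold higher, with the sign turned after thinning). With Ppy+Gcg+Sst+ cells alone, none of the 12 rose and Iapp fell, and the list median was 0.11 in place of 2.43 (2.31 with Slc2a2 and Ucn3 at their bounds).

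Against bihormonal Ppy+Ins2+ cells, 253 of 9320 genes were called (2.71%), 114 higher (1.22%) and 139 lower (1.49%). The count was 41 without the YFP+ library of experiment 1, 96 without that of experiment 2 and 60 after thinning. All 12 β-cell genes fell, with a median log2 fold change of -2.74, while 3 α-cell genes (Irx2, Ttr and Slc7a2), 2 δ-cell genes (Hhex and Rbp4) and 2 γ-cell genes (Pyy and Etv1) rose. Chga, the granule protein chromogranin A, was at 1446 and 1759 against 6429 and 5279.98 CPM (-1.86 ± 0.18, adjusted p = 1.09e-06). Etv1, an ETS transcription factor, was at 516 and 448 against 113 and 146 CPM (1.94 ± 0.18, adjusted p = 7.62e-07). Hhex had 82 UMIs against 0, at least 13.7-fold higher against 3 counts over the group.

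**Figure D4:**
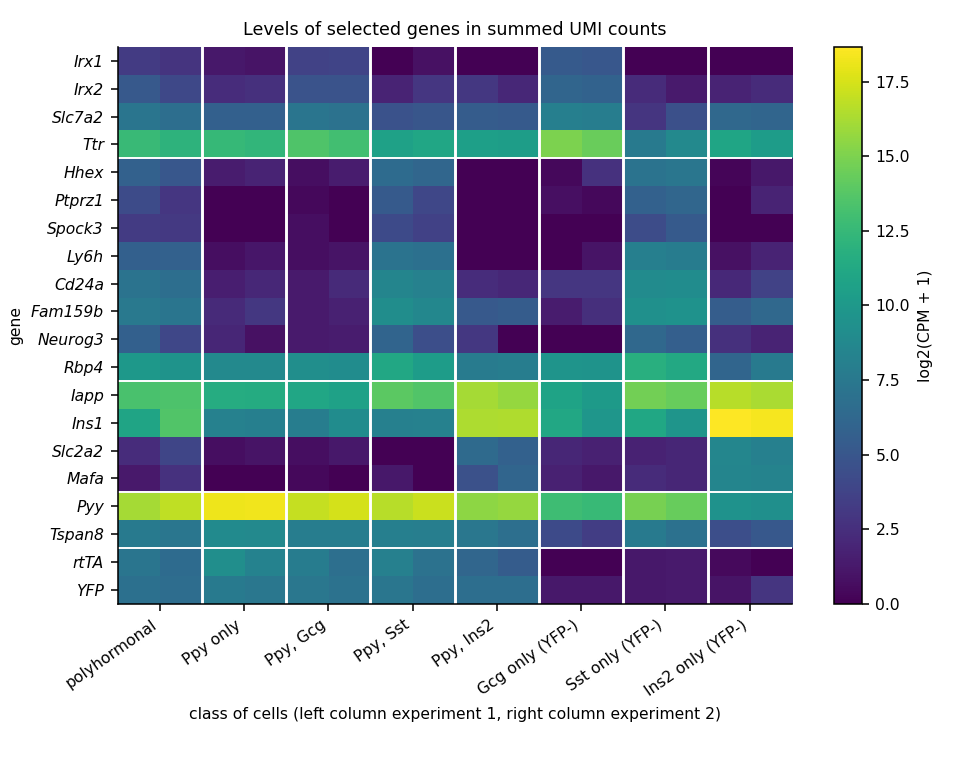
Level of named genes, as log2 of 1 plus TMM-normalized CPM, in 8 classes of cells, with experiment 1 in the left and experiment 2 in the right column of each class. White lines part α-cell genes, δ-cell genes with others abundant in Sst+ cells, β-cell genes, γ-cell genes and transgenes, and the polyhormonal columns show Irx2 (36.6 and 15.3 CPM) and Hhex (55.0 and 32.9 CPM) in the same sums of cells. Such sums do not show whether both lie in the same cell.

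The combinations were not alike. Only Ppy+Gcg+Sst+ cells were numerous enough for a test of their own, and against monohormonal Ppy+ cells 312 of 9307 genes were called (3.35%), 175 higher (1.88%) and 137 lower (1.47%). The count was 43 without the YFP+ library of experiment 1, 64 without that of experiment 2 and 28 after thinning. Irx2 was at 36.7 and 18.7 CPM (2.55 ± 0.34, adjusted p = 5.19e-05) and Hhex at 60.7 and 37.4 CPM (4.40 ± 0.45, adjusted p = 1.75e-06). The same 4 α-cell genes rose as for all polyhormonal cells, and the 4 δ-cell genes Hhex, Rbp4, Spock3 and Ptprz1 rose. Of the 12 β-cell genes, Iapp rose (5803 and 5312 against 3081 and 2838 CPM, 0.91 ± 0.13, adjusted p = 9.03e-05). Nkx6-1 fell, from 49.5 and 45.4 to 11.2 and 26.4 CPM (-1.28 ± 0.37, adjusted p = 0.0491). Against Ppy+Gcg+ cells, 67 genes were called in this combination (0.72%, with 0.698% higher and 0.0215% lower), and against Ppy+Sst+ cells 49 (0.526%, with 0.322% higher and 0.204% lower). Without the YFP+ library of experiment 1 or 2, the counts were 19 and 20 against Ppy+Gcg+ cells and 9 and 15 against Ppy+Sst+ cells, and after thinning they were 7 and 15.

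Summed over each list, Ppy+Gcg+Sst+ cells of the YFP+ libraries lay between Ppy+Gcg+ and Ppy+Sst+ cells for the α-, δ- and β-cell genes and below both for the γ-cell genes. In plain CPM, the α-cell genes, mostly Ttr, summed to 9234 and 6525, which was 0.745 and 0.747 times the level in Ppy+Gcg+ cells and 4.17 and 2.32 times that in Ppy+Sst+ cells. The δ-cell genes, mostly Rbp4, summed to 1555 and 1127 CPM, 2.49 and 2.03 times the Ppy+Gcg+ and 0.493 and 0.664 times the Ppy+Sst+ level. The β-cell genes, mostly Iapp, were at 3.13 and 3.06 times the Ppy+Gcg+ and 0.377 and 0.454 times the Ppy+Sst+ level. The γ-cell genes, mostly Pyy, were at 0.717 and 0.881 times the Ppy+Gcg+ and 0.734 and 0.887 times the Ppy+Sst+ level, and at 0.386 and 0.599 times that of monohormonal Ppy+ cells. On the TMM-normalized scale, over the genes that passed the filter, the order was the same and the ratios to Ppy+Gcg+ cells were 0.598 and 0.617 for the α, 2.00 and 1.67 for the δ, 2.52 and 2.53 for the β and 0.576 and 0.728 for the γ list. The γ list was then at 0.258 and 0.417 times the level of monohormonal Ppy+ cells. These ratios are a description of 2 libraries and carry no test.

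**Figure D5:**
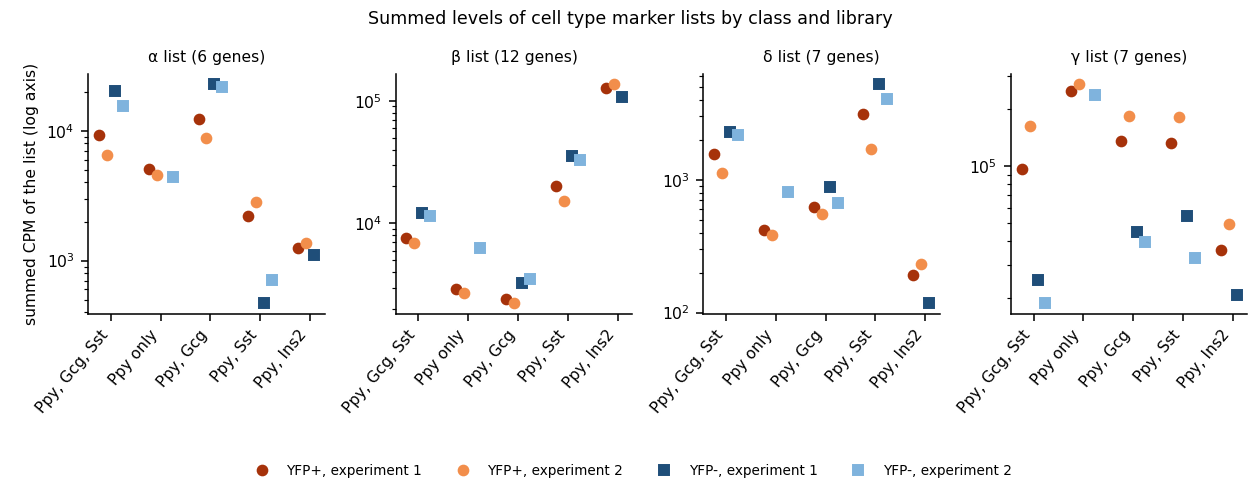
Summed level of the α-, δ-, β- and γ-cell gene lists in plain CPM (vertical log axis) by class of cell, with one symbol per library. Polyhormonal Ppy+Gcg+Sst+ cells lay between Ppy+Gcg+ and Ppy+Sst+ cells for the first 3 lists and below both for the γ-cell genes.

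In the small combinations, Irx2 and Hhex rested on few UMIs. In the 12 YFP+ Ppy+Gcg+Ins2+ cells, Irx2 was at 22.7 CPM (5 UMIs) and Hhex at 0, with Ins1 at 37485 CPM. In the 8 YFP+ Ppy+Ins2+Sst+ cells, Hhex was at 66.2 CPM (7 UMIs) and Irx2 at 9.45 CPM (1 UMI), with Ins1 at 51166 and Mafa at 37.8 CPM (4 UMIs). In the 4 YFP+ cells with all 4 hormones, Hhex was at 24.6 CPM (3 UMIs) and Irx2 at 0. These classes were too small for a test.

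Hhex and Irx2 were also looked for in the same cell, as a description of Ppy+Gcg+Sst+ cells. Both had at least 1 UMI in 6 of 39 (15.4%) and 9 of 48 (18.8%) YFP+ cells and in 2 of 14 and 9 of 37 YFP- cells of this combination. In the YFP+ libraries, both were found in 0 of 721 and 1 of 828 monohormonal Ppy+ cells, 1 of 334 and 2 of 328 Ppy+Gcg+ cells and 1 of 102 and 2 of 159 Ppy+Sst+ cells. Depth bears on this share. After thinning to 3000 UMIs, 0 of 38 and 0 of 47 YFP+ and 0 of 14 and 1 of 34 YFP- Ppy+Gcg+Sst+ cells showed both. Hhex alone was found in 21.1% and 10.6% of thinned YFP+ Ppy+Gcg+Sst+ cells (8 of 38 and 5 of 47), against 33.7% and 22.6% of Ppy+Sst+ cells and 0 of 328 and 4 of 281 Ppy+Gcg+ cells. Irx2 alone was found in 7.89% and 6.38% of them (3 of 38 and 3 of 47), against 8.54% and 8.90% of Ppy+Gcg+ cells and 0 of 86 and 2 of 106 Ppy+Sst+ cells. For Hhex, the intervals of Ppy+Gcg+Sst+ and Ppy+Gcg+ cells were apart in experiment 1 (9.55 to 37.3% against 0 to 1.12%) and touched in experiment 2 (3.55 to 23.1% against 0.389 to 3.604%). For Irx2, the intervals of Ppy+Gcg+Sst+ and Ppy+Sst+ cells overlapped in both, at 1.66 to 21.4% against 0 to 4.20% and 1.34 to 17.5% against 0.229 to 6.65%. These intervals cover counting error within a library only, since cells of a library are not replicates, and these differences between classes were not tested. The share with both in 1 cell could not be resolved at an equal depth in the YFP+ libraries.

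Finally, polyhormonal cells of the YFP+ libraries were compared with those of the YFP- libraries, where the sort is the contrast. Of 9268 genes, 21 were called (0.227%), 8 higher (0.0863%) and 13 lower (0.14%) in YFP+ cells. The count was 68 without the YFP- library of experiment 1, which holds 15 of these cells, 36 without the YFP+ library of experiment 1, and 3 after thinning. The transgenes marked the sort, with rtTA at 155 and 95.8 CPM in YFP+ and 0 in both YFP- sums (229 UMIs against 0, at least 39.1-fold higher against 3 counts over the group). YFP had 219 UMIs in YFP+ and 1 in YFP- polyhormonal cells. Beyond the transgenes, 2 of the 7 γ-cell genes were higher in YFP+ cells (Pyy and Tspan8), with a list median of 0.53 against -0.013 over all genes. Pyy was at 76426 and 123740 against 18820.5 and 13699 CPM (2.61 ± 0.22, adjusted p = 5.38e-08) and Tspan8 at 211 and 166 against 61.7 and 65.7 CPM (1.502 ± 0.24, adjusted p = 0.00151).

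Of the 6 α-cell genes, Ttr was lower in the YFP+ polyhormonal cells, at 6627 and 4302 against 14547 and 10045 CPM (-1.17 ± 0.24, adjusted p = 0.0373), and the list median was -1.10. Papss2, an enzyme of sulphate activation on the β-cell list, was at 5.78 and 14.1 against 41.1 and 36.3 CPM (-1.76 ± 0.36, adjusted p = 0.0346), and turned its sign after thinning. Hhex was at 56.4 and 33.8 against 54.8 and 58.7 CPM and was not called (-0.43 ± 0.37, adjusted p = 0.855). Cd74, by which cells were dropped, is among the 21 called genes but is not read as a result. Lyz2, lysozyme of myeloid cells, was lower in YFP+ cells (2 UMIs of Lyz2 against 20, a ratio of 19.5 with a counting interval of 4.74 to 172). The 8 immune markers summed to 154 and 224 CPM in the YFP- polyhormonal cells, led by C1qa at 103 and 84.4 CPM. Their part in the other differences was not tested.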

How the data were processed

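Single-cell RNA-seq of 4 libraries was used. The authors aligned the 10x reads with Cell Ranger to mm10 and deposited UMI counts per gene and cell, and per the labels Seurat was used downstream. All 5982 deposited cells were used with no further quality filter, and the 890 with Cd74, Col3a1 or Plvap entered no hormone class. Bulk samples of the series were not analysed here, and some genes are not reported, lists included. The members, gene lists and tests were chosen with earlier results of these data known.

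Counts were summed per class and library for classes of at least 10 cells and tested with edgeR 4.0.16 in R 4.3.3 (quasi-likelihood, TMM, low-count filter) with the experiment as a block, over 16 sums, with DESeq2 1.42.0 as an alternative. The 2 experiments pair the sums because classes of an experiment come from the same pooled animals. The deviations of experiment 2 from experiment 1 correlated at 0.088 to 0.521 (median 0.248) over 28 pairs of classes. Nothing in the labels separates animals within a pool, so p-values measure the spread between these libraries. Named genes were all genes of the lists and the 10 largest changes in each direction against monohormonal Ppy+ and Ppy+Gcg+ cells, among called genes whose sums did not overlap, at 10 CPM or more in the higher class, without the rule's genes and with predicted genes counted but not named. Tested on simulated data for polyhormonal against monohormonal Ppy+ cells (8596 genes), the fit recovered 74 of 100 genes changed 2-fold and 98 of 100 changed 4-fold. It made 3 false calls. All simulated sums had the same mean profile and a common dispersion of 0.0116, without class or experiment effects. Genes of low expected count were not changed, so these shares do not cover genes with few UMIs. Doublets were scored with Scrublet in scanpy 1.11.5, which marked under 0.5% of cells, and with a nearest-neighbour share of artificial doublets. Doublets were marked, not removed.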

Additional observations from a re-analysis of the deposited data

How the results depend on the processing

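Without the replicate block, the counts of called genes were 151 against monohormonal Ppy+, 57 against Ppy+Gcg+, 15 against Ppy+Sst+ and 141 against Ppy+Ins2+ cells, 128 for Ppy+Gcg+Sst+ against monohormonal Ppy+ cells and 4 for YFP+ against YFP- polyhormonal cells. In the same order, thinning each cell to 1000 UMIs left 44, 14, 17, 60, 28 and 3 genes. The thinned fits tested fewer genes, 2205 for all polyhormonal cells, 2269 for Ppy+Gcg+Sst+ cells and 2154 between the fractions, so these counts are not shares of the same genes. Sums over both fractions gave 640, 185 and 129 genes for the first 3 comparisons and 574 for Ppy+Gcg+Sst+ cells, which against Ppy+Gcg+ and Ppy+Sst+ cells gave 132 and 117. Without the filter on low counts, 182 genes were called against Ppy+Gcg+ cells, 92 against Ppy+Sst+ cells and 85 between the fractions, and for Ppy+Gcg+Sst+ cells 127 and 87 against Ppy+Gcg+ and Ppy+Sst+ cells. For Ppy+Gcg+Sst+ cells against these classes, the counts were 39 and 11 without the replicate block, and without each YFP- library 132 and 129 against Ppy+Gcg+ and 89 and 87 against Ppy+Sst+ cells. Lowering the thresholds by 0.25 gave 33 between the fractions. Leaving out each library in turn gave 75 to 536, 30 to 210, 16 to 84, 41 to 320, 43 to 455 and 18 to 68 genes. Leaving out each experiment in turn left between 60 and 112 polyhormonal cells. A class with 1 library left was assumed to vary like the others.

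In alternatives chosen after seeing the data, polyhormonal cells with no more UMIs than the upper quartile of Ppy+Gcg+ cells gave 236 genes against monohormonal Ppy+ cells, 22 against Ppy+Sst+ cells and 205 for Ppy+Gcg+Sst+ cells. Ppy+Gcg+Sst+ cells of lower UMI totals gave 22 against Ppy+Sst+ cells. Leaving out the Ins2 combinations, as in the comparison of Ppy+Gcg+Sst+ cells above, gave 67 against Ppy+Gcg+ cells. The share marked as doublets was 0% with Scrublet alone, 5.81% with callers run on each library and 9.30% with the top 5% of the nearest-neighbour score.

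Log2 fold changes that turned their sign after thinning were, against monohormonal Ppy+ cells, Krt7 (0.30), Mafa (-0.0074), Pdx1 (-0.25), Ucn3 (-3.01) and, in Ppy+Gcg+Sst+ cells, Insm1 (-0.16). Against Ppy+Gcg+ and Ppy+Sst+ cells Ucn3 turned (-1.92 and -0.016), against Ppy+Ins2+ cells Hspa5 (0.019), Krt7 (0.19) and Neurog3 (-0.077), and between the fractions Papss2 (1.28). Ucn3 also turned in polyhormonal cells of lower UMI totals, to -4.68, -4.85 and -0.24 against monohormonal Ppy+, Ppy+Gcg+ and Ppy+Sst+ cells, and Lyz2 to 2.33 with both fractions, where it was called higher (adjusted p = 0.0281). The cause was not tested. Of the named genes called against monohormonal Ppy+ cells, 9 of 53 kept their call under every alternative run (Cd24a, Fam159b, Iapp, Ins1, Ly6h, Mef2c, Pyy, Sdk2 and rtTA). Such calls numbered 6 of 34 against Ppy+Gcg+, 1 of 10 against Ppy+Sst+ and 7 of 36 against Ppy+Ins2+ cells. They numbered 6 of 42 for Ppy+Gcg+Sst+ against monohormonal Ppy+ cells and 1 of 7 between the fractions. Depth limits the genes with few UMIs in the polyhormonal sums, of 573525 and 1103091 UMIs.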
